A study of Mus musculus with 2 samples.

Results

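The collagen genes of 2 mouse tumours were described class by class on microarrays. The members were every non-control probe whose deposited gene name is Col, a number, the letter a and a number, as in Col1a1. This gave 78 probes, printed as 96 spots, for 40 genes, out of 41174 probes and 27962 gene names on the array. By class they were 25 probes for 11 fibrillar genes, 13 for the 6 type IV genes of basement membranes, 4 for 3 network-forming genes, 14 for 9 FACIT genes, 6 for 3 type VI genes, and 16 for 8 genes outside these classes. FACIT stands for fibril-associated collagens with interrupted triple helices. Probes of one gene were kept apart.

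Each tumour grew from RMS3, a mouse line that the labels call a PRMS cell line without spelling the term out. For each, 1000000 cells in 200 µl were placed under the skin of a male C57BL/6J host and grown for 2 weeks. The treatment text calls the harvested tumours metastatic, while the other labels describe subcutaneous tumours. Both tumours received the same treatment, and no uninjected, untreated or cultured sample stands beside them, so they form 1 group with n = 2. All cells came from 1 line in mice of 1 strain, and the host is also a mouse, so transcripts of tumour cells and of host stroma cannot be told apart by species. In bulk tissue, fewer cells of a type and less RNA per cell cannot be told apart either. Age and any other genotype are not given in the sources used here.

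Collagens are proteins whose chains wind into a triple helix, and each gene encodes a single kind of chain. Fibrillar collagens build the cables that give connective tissue its tensile strength, FACITs sit on the surface of those cables, and type IV collagen forms the sheet under epithelia, around vessels and around muscle fibres. Type VI collagen forms beaded filaments between the cell surface and the fibrils, while the transmembrane collagens are anchored in the plasma membrane. Fibroblasts are the main source of fibrillar collagen in most tissues, and muscle, vessel and tumour cells also make type IV collagen.

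Each array gave 1 value per spot in a single dye, Cy3. A level here is the log2 of the deposited processed signal relative to the 75th percentile of the array, which was at 995 units of intensity on array 1 (tumour 1) and 901.9 on array 2 (tumour 2). A difference is the level in tumour 2 minus that in tumour 1, so a positive difference means more signal in tumour 2. Levels of different probes depend on how well each probe binds and are not set against each other. With 1 tumour on either side, no difference has a replicate check, and no test was run. Array 1 carried 1128 spots marked as outliers by the scanner software and array 2 carried 69, and signal beside those marks varied more, with a standard deviation of the difference of 1.35 over all probes there and 0.58 away from them. The values below therefore come from spots more than 2 rows and columns away from them unless stated otherwise. Such spots made up 72.2% of all non-control spots. For 179 probes with 1251 usable repeat spots, these had a standard deviation of 0.23 on array 1, of 0.11 on array 2 and of 0.23 for the difference, or 0.32 for probes below a level of -3 and 0.21 above it. This is error within an array and leaves out labelling and hybridisation. The muscle markers Des, Myog, Myod1, Myh3 and Mef2c were well above background in both tumours. Des was higher in tumour 2 by 1.24 and Myh3 by 1.07, while Myog differed by 0.13, Mef2c by 0.05 and Myod1 by -0.35. The summed relative signal of the list was 1.06 in tumour 1 and 1.60 in tumour 2. Myf5 and Pax7 were not well above background in either.

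Of the 78 collagen probes, 55 had a spot away from the marks, and 38 of these, for 27 genes, were well above background on both arrays. That share can be set beside 61.6% of all 29788 probes with such a spot. A further 6 collagen probes were above background in 1 tumour alone, 5 of them in tumour 2 (3.74% of all probes) and 1 in tumour 1 (1.58%). The other 11 were above background in neither. Of the 23 probes without such a spot, 2 were themselves marked, and 21 lay beside a mark, where 12 were above background on both arrays (52.9% of all such probes), 8 on neither and 1 in tumour 2 alone. Counting probes beside marks, 32 of the 40 genes had signal in both tumours. The 8 without were Col4a3, Col8a2, Col10a1, Col9a1, Col9a3, Col20a1 and Col28a1, which were not well above background, and Col7a1, whose only spot was marked.

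**Figure D1:**
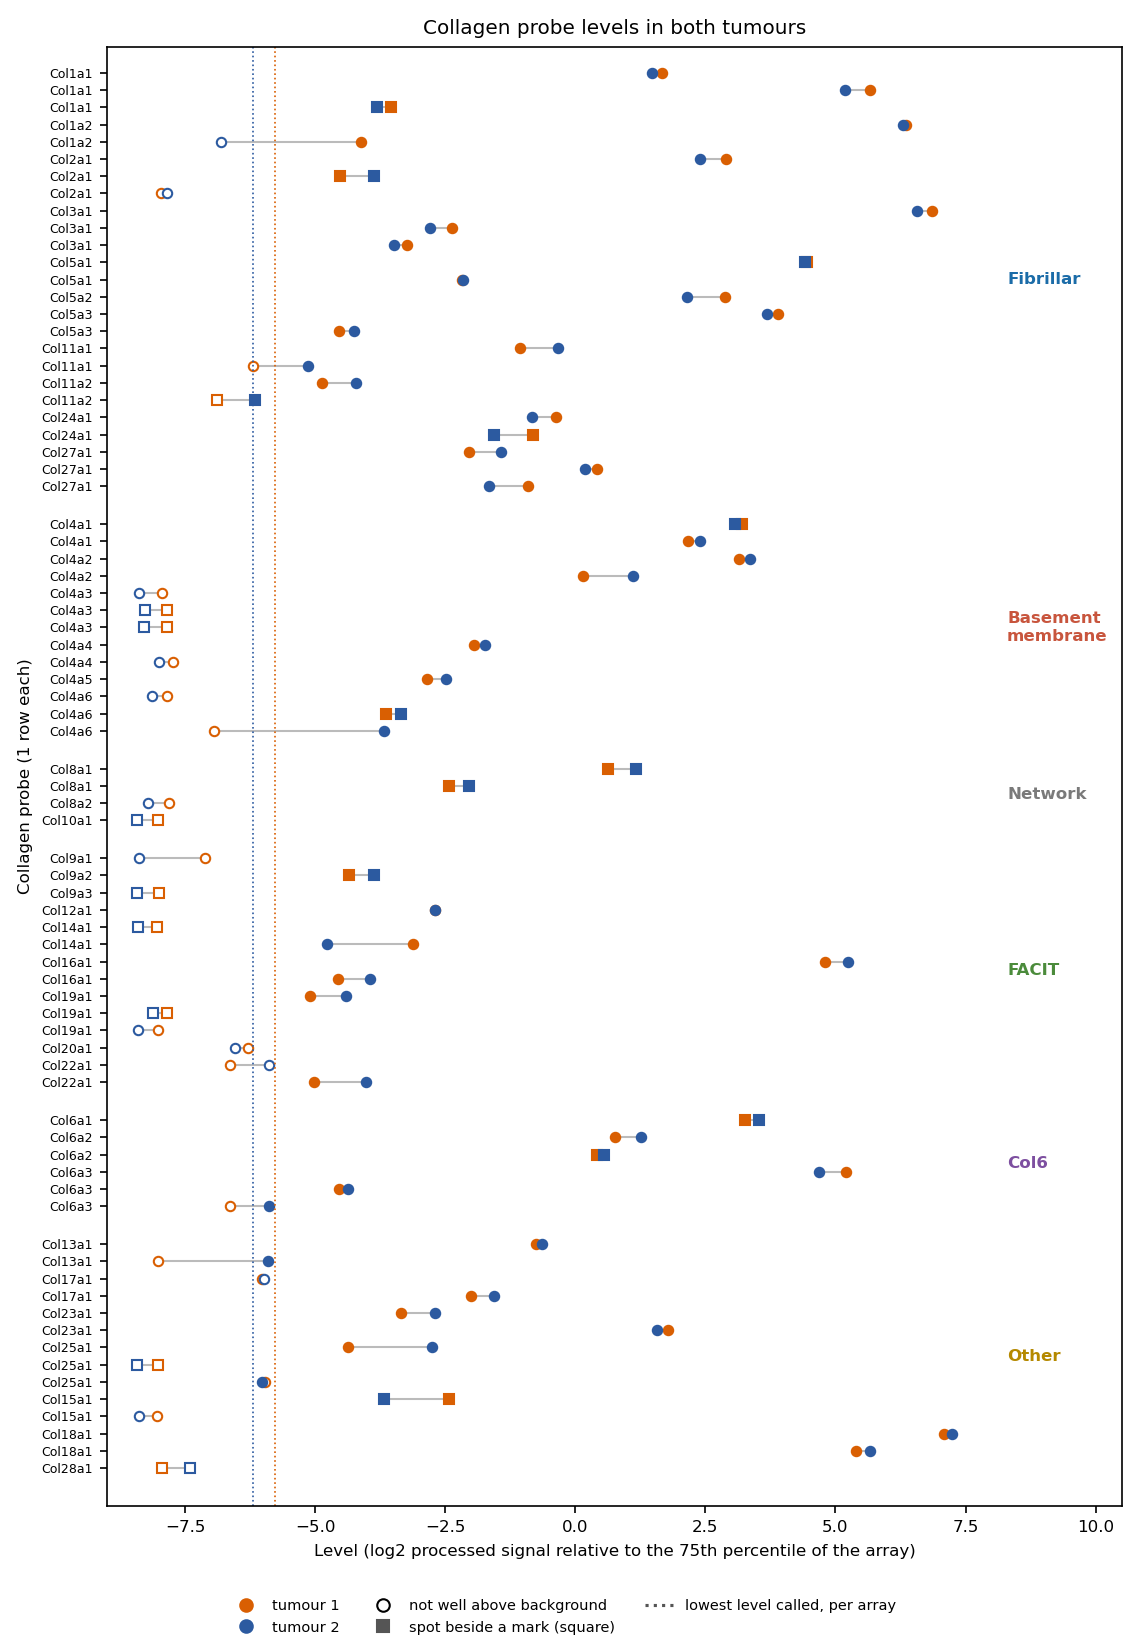
Level (log2, relative to the 75th percentile of the array) of every collagen probe with an unmarked spot in tumour 1 and tumour 2, by class, with 1 line per probe, open symbols for signal not well above background, squares for spots beside a mark and dotted lines for the lowest level called on each array. Most pairs of points lie close together, and the widest gaps among probes measured in both tumours belong to Col14a1 and Col25a1.

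Of the collagen probes measured in both tumours 3 reached 2-fold, a count too small to set them apart from all measured probes. Of the 38, 2 were at least 2-fold higher in tumour 2, for Col25a1 and Col22a1, against 2.75% of all 18355 measured probes. In the other direction 1 probe, for Col14a1, was at least 2-fold higher in tumour 1, against 3.82% of all probes. At 1.5-fold the counts were 9 probes higher in tumour 2 (9.42% of all probes) and 3 higher in tumour 1 (11.8%). The median difference of the 38 was 0.16, with 22 higher in tumour 2 and 16 in tumour 1, while all probes had a median of -0.01 with 48.7% higher in tumour 2 and 51.3% in tumour 1. These counts leave out the 6 probes above background in 1 tumour alone, among them probes of Col1a2 and Col4a6 with lower bounds of 4.18-fold and 4.28-fold. In all, 36 of the 38 lay within -1.16 to 1.04, the central 95% of all probes, and 27 differed by more than the technical standard deviation for their level and number of spots. The median difference of the other measured spots within 10 rows and columns of each of the 38 lay between -0.14 and 0.05. With normexp background correction in place of the processed signal, 0 of the 38 reached 2-fold, Col25a1 lying just under the line at 1.00 and Col14a1 at -0.88. That setting adds an offset of 50 to every signal, which by itself draws the differences of dim probes towards 0.

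**Figure D2:**
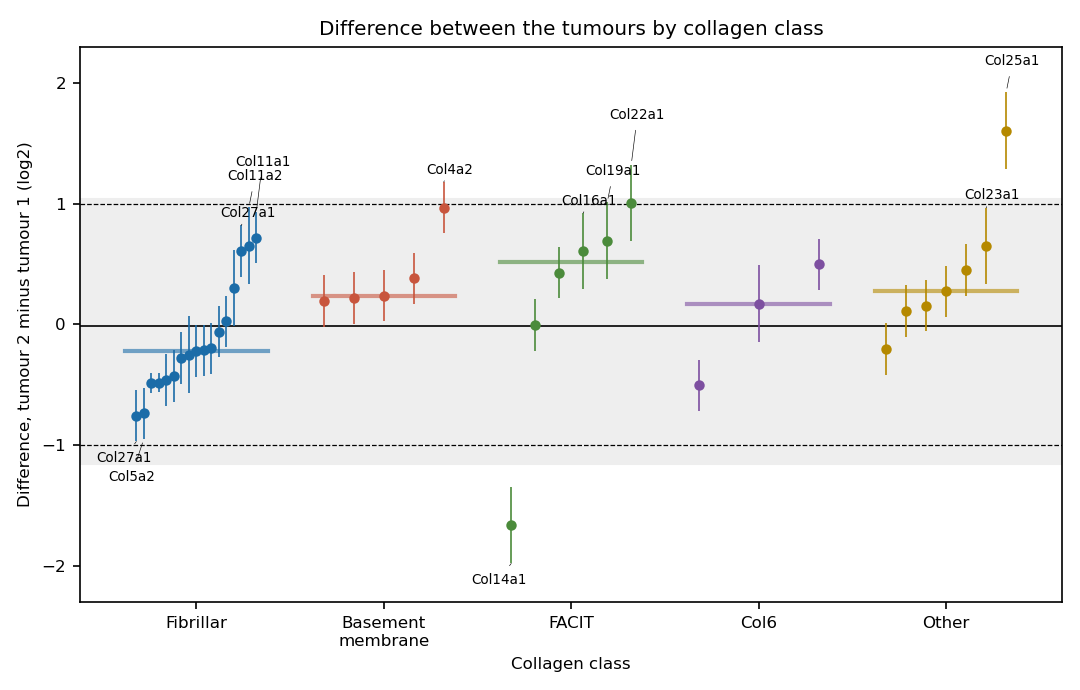
Difference (log2, tumour 2 minus tumour 1) of the 38 measured collagen probes by class, with bars of 1 technical standard deviation from repeat spots, thick lines at class medians, dashed lines at 2-fold and grey shading over the central 95% of all measured probes. The fibrillar median lies below 0 at -0.22 and the other class medians above 0, and only Col14a1 and Col25a1 lie outside the shading.

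Fibrillar collagen probes leaned slightly towards tumour 1. Of 25 probes, 17 were measured in both tumours, representing all 11 genes, and their median difference was -0.22 with a range of -0.76 to 0.72. Among these 12 were higher in tumour 1 and 5 in tumour 2, and none reached 2-fold in either direction. Over all measured probes 51.3% were higher in tumour 1. Some genes count with several probes. The median is close in size to 0.21, the technical standard deviation of the difference at levels of -3 and above. Types I, III and V, the fibrillar collagens of skin, tendon, muscle sheaths and scar, had 10 measured probes with a median of -0.23, of which 8 were lower in tumour 2. This grouping was made with the values known. Type XI went the other way, with both measured probes higher in tumour 2 and a median of 0.69.

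Type I collagen, built from Col1a1 and Col1a2 chains and the most abundant collagen of connective tissue, was among the transcripts far above the array's 75th percentile. The Col1a2 probe A_51_P182303 had a level of 6.35 in tumour 1 and 6.29 in tumour 2, differing by -0.06 that is smaller than the technical spread. The Col1a1 probe A_52_P525107 was at 5.67 in tumour 1 and 5.18 in tumour 2. That difference of -0.48 rests on 7 of its 10 printed spots, and in all 7 the signal was lower in tumour 2, with spot differences from -0.55 to -0.44 (SD 0.048). Spot levels ran from 5.54 to 5.73 in tumour 1 and from 5.10 to 5.27 in tumour 2. These spots are repeat readings on 1 array per tumour and not replicates of the tumours. A second Col1a1 probe, A_51_P377094, was at 1.66 and 1.46, a difference of -0.20 close to the technical spread. The third, A_52_P658611, lay beside a mark and read -3.54 and -3.81. All 3 Col1a1 probes were thus lower in tumour 2, by -0.48, -0.20 and -0.27. The second Col1a2 probe, A_52_P424253, had a level of -4.13 in tumour 1 and was not well above background in tumour 2 (-6.81). Against the lowest level called on array 2 its signal was at least 4.18-fold higher in tumour 1, which stands apart from the -0.06 of the bright probe of the same gene. Its accession was among the 21 of the 78 that had no entry in the RefSeq table used for names.

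**Figure D3:**
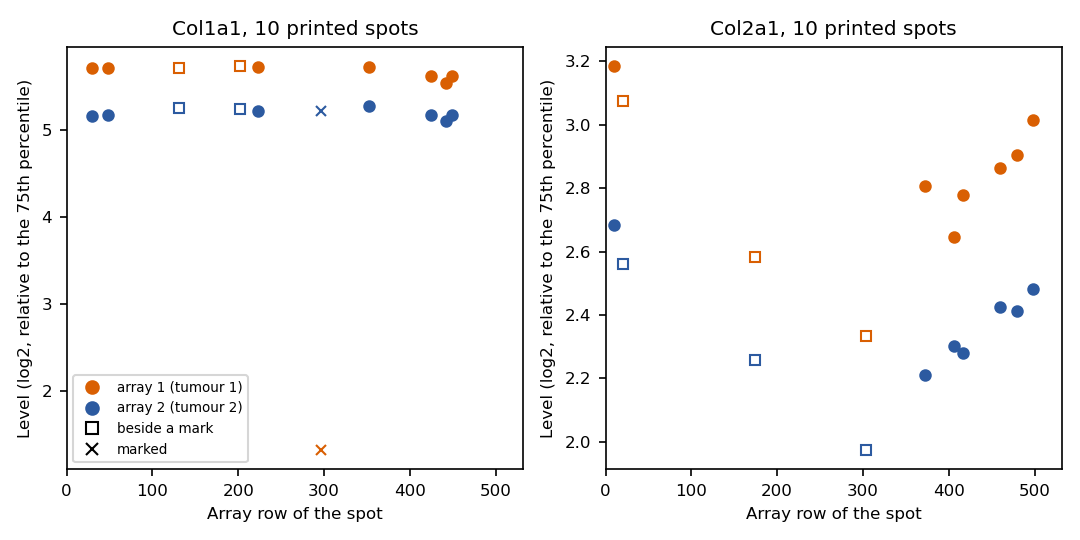
Level (log2, relative to the 75th percentile) of the 10 printed spots of a Col1a1 probe (left) and a Col2a1 probe (right) against the row of the spot on array 1 (orange) and array 2 (blue), with filled circles for spots used, open squares for spots beside a mark and crosses for a marked spot. At each spot used the signal of tumour 2 is below that of tumour 1, and the marked Col1a1 spot reads 1.32 on array 1 and 5.22 on array 2.

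The plot of repeat spots shows what a mark does to a collagen reading. At the marked position Col1a1 read 1.32 on array 1, far below its other spots, while array 2 read 5.22 there, as at its other spots. The 2 Col1a1 spots beside marks kept levels close to the rest on both arrays. Of the 3 Col2a1 spots beside marks, 2 lay below the range of the used spots on array 1, at 2.58 and 2.33, and the latter also on array 2, at 1.97.

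Type III collagen, a homotrimer that runs with type I in skin, vessels and healing tissue, was lower in tumour 2 on all 3 Col3a1 probes. The bright probe A_51_P515605 was at 6.85 in tumour 1 and 6.57 in tumour 2, differing by -0.28. The dim probes A_52_P684242 and A_52_P8643 differed by -0.43 and -0.25.

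Type V collagen, which starts type I fibrils and limits their width, differed by chain. Col5a2 was at 2.88 in tumour 1 and 2.15 in tumour 2, and this difference of -0.74 (1.67-fold) lay outside -0.59 to 0.73, the central 95% of the 2295 probes with a mean level between 2 and 4. The bright Col5a3 probe A_51_P241995 was at 3.89 and 3.68, a difference of -0.22, whereas the dim probe A_52_P503796 was at -4.55 and -4.25, a difference of 0.30 within the technical spread of dim probes. Col5a1 hardly differed, by 0.03 on A_52_P237371 and by -0.03 on A_51_P414637, which lay beside a mark and had levels of 4.45 and 4.42.

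Type II and type XI collagens are best known from cartilage, where type XI seeds the thin type II fibrils. Col2a1 was measured on 7 of the 10 spots of probe A_51_P317141, at 2.89 in tumour 1 and 2.40 in tumour 2. Its difference was -0.49, the spot differences ran from -0.60 to -0.34 (SD 0.079), and all 7 were lower in tumour 2. The other Col2a1 probes did not give the same picture, since A_52_P216436, beside a mark, was higher in tumour 2 by 0.67 at low levels of -4.53 and -3.86, and A_52_P564148 was not well above background in either tumour. Col11a1 probe A_51_P459477 was at -1.06 in tumour 1 and -0.34 in tumour 2, differing by 0.72 (1.65-fold). Its second probe, A_52_P507877, was above background in tumour 2 alone, at -5.14, and at least 1.56-fold higher there. Col11a2, a partner chain, was at -4.86 and -4.21 on A_51_P264666, a difference of 0.65 (1.57-fold), or 0.28 with normexp. The second Col11a2 probe was above background in tumour 2 alone as well, beside a mark and too close to the lowest level called for a bound. Only the type XI probes measured in both tumours carry a direction, since the side of the others follows from the background call. Of the chondrocyte markers Sox9, Chad, Comp, Hapln1, Matn1 and Matn3, only the transcription factor Sox9 was above background in both tumours, at differences of 1.04, 0.01 and -0.03 on its 3 probes. The summed relative signal of this list, all of it from Sox9, was 21.7 in tumour 1 and 21.5 in tumour 2. The part of these markers in the type II and type XI values was not tested.

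Types XXIV and XXVII are minor fibrillar collagens with a short, interrupted helix. Col24a1 was at -0.37 in tumour 1 and -0.83 in tumour 2, differing by -0.46. Its second probe, beside a mark, agreed in direction at -0.75. Col27a1 had the widest span among collagens with several probes measured in both tumours. Probe A_52_P129388 was at -2.05 and -1.44, higher in tumour 2 by 0.61. Probe A_52_P480088 was at 0.41 and 0.19, a difference of -0.22. Probe A_52_P628870 was at -0.90 and -1.66, a difference of -0.76. The highest and lowest of these lay 1.37 apart, so no single direction can be given for Col27a1. Both probes lower in tumour 2 had accessions without a RefSeq entry, while that of A_52_P129388 matched.

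Of the fibrillar genes, Col1a2 and Col3a1 belong to types I, III and V, which leaned towards tumour 1. The measured Col1a2 probe itself differed by -0.06, within the technical spread. Col11a1 belongs to type XI, which leaned towards tumour 2. Promoter letters of these 3 genes are shown to set their start regions side by side. They come from RefSeq windows of GRCm38.p6, trimmed to the bases before the first annotated start, on the plus strand: Col1a2 at chr6:4505368-4505617, Col3a1 at chr1:45311288-45311537 and Col11a1 at chr3:114030290-114030478. Capitals mark matches, on either strand, to 3 short motifs of proximal promoters, which are CCAAT (the CCAAT box), TATAAA (the TATA box) and GGGCGG (the GC box).
Col1a2: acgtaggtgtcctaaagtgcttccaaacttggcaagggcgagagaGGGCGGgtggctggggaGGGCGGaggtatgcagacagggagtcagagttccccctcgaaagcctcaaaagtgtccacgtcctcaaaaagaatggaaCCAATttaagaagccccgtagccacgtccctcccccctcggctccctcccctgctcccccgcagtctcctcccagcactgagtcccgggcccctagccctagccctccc
Col3a1: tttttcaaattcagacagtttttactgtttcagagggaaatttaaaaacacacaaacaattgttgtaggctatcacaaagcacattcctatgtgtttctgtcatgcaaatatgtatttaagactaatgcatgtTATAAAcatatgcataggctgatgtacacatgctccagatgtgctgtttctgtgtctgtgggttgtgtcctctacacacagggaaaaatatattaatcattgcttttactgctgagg
Col11a1: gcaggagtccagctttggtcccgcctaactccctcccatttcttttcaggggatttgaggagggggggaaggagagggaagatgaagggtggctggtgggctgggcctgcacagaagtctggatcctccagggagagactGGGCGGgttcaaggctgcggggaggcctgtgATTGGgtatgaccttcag
Col1a2 held 2 matches to GGGCGG, starting 205 and 188 bases before the start, and 1 to CCAAT at 109 bases. Col3a1 held TATAAA at 117 bases and neither of the others. Col11a1 held GGGCGG at 49 bases and CCAAT on the other strand, printed as ATTGG, at 18 bases. Full windows of 250 bases before to 50 after the start were available for 32 of the 40 collagen genes. Motifs were counted in the 250 bases before the start only. CCAAT was in 11 of these 32 (34.4%) and in 34.5% of all 27025 windows, and TATAAA in 5 (15.6%) and 13.0%. GGGCGG was in 18 (56.2%) and in 32.9% of all windows. The 3 motifs share no overlapping positions in the printed stretches, and a match describes letters only.

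Basement membrane collagen probes leaned slightly towards tumour 2. All 5 measured type IV probes were higher in tumour 2, with a median difference of 0.24 and a range of 0.19 to 0.97, and none reached 2-fold. They stand for 4 genes, and 48.7% of all measured probes were higher in tumour 2. With spots beside marks included the median was 0.04, where that of all probes was -0.18. Col4a1 and Col4a2 encode the ubiquitous pair of chains in all basement membranes and sit head to head in the genome, on opposite strands. Col4a1 was at 2.16 in tumour 1 and 2.40 in tumour 2 on A_52_P518827, a difference of 0.24, while its brighter probe A_51_P124254, beside a mark, was at 3.19 and 3.07, a difference of -0.12. Col4a2 was at 3.15 and 3.35 on A_51_P491350, a difference of 0.19, and at 0.14 and 1.11 on A_52_P496142. The latter difference of 0.97 (1.96-fold) lay outside -0.83 to 0.85, the central 95% of the 3783 probes with a mean level between 0 and 2. The 2 probes of Col4a2 thus differed by 0.77 from each other, and the smaller values of the pair are near the technical spread.

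The other 4 type IV chains build specialised basement membranes such as those of the kidney glomerulus. Col4a3 was not well above background on any of its 3 probes. Its partners were detected, Col4a4 at -1.95 in tumour 1 and -1.73 in tumour 2 (difference 0.22) and Col4a5 at -2.86 and -2.48 (difference 0.38). A second Col4a4 probe was not above background in either tumour. Col4a6 gave 3 different answers. Probe A_52_P516409 was not well above background in tumour 1 (-6.94) and was at -3.68 in tumour 2, at least 4.28-fold higher. Its accession had no RefSeq entry. Probe A_52_P447196, beside a mark, had similar levels of -3.65 and -3.35, and A_51_P109326 was above background in neither tumour. Of the partners of type IV collagen in the sheet, Nid2, Sparc and Smoc2 had 5 measured probes with a median of -0.08, 4 of them lower in tumour 2, and each differed by no more than the technical spread. Nid2, a linker between laminin and type IV collagen, was at 0.00 and 0.12. Nid1 had no usable spot away from marks, so no reading is given for it. Endothelial markers, genes of cells that lay down vessel basement membrane, had 11 measured probes with a median of -0.33 and a summed relative signal of 12.9 in tumour 1 and 10.2 in tumour 2. Pericyte markers, 7 measured probes with a median of 0.17, summed to 7.87 and 7.15. Most of that sum is 1 bright probe that was lower in tumour 2, while 4 of the 7 probes were higher there. The part of endothelial and pericyte markers in the type IV values was not tested.

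Of the network-forming collagens, Col8a1 of the vessel wall and Descemet's membrane was detected, on probes beside marks only. Probe A_52_P282058 was at 0.62 in tumour 1 and 1.16 in tumour 2, and A_52_P292792 at -2.43 and -2.05. Both were higher in tumour 2, by 0.54 and 0.38. All probes with spots beside marks alone also lay to that side, with a median of 0.17 and 3378 of 5505 higher in tumour 2. Its partner Col8a2 was not well above background, and neither was Col10a1, the collagen of hypertrophic cartilage.

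The FACIT class held the widest spread. Its 6 measured probes ran from -1.67 to 1.01 with a median of 0.52, 4 higher in tumour 2 and 2 in tumour 1. With normexp the median was 0.27. Col14a1, which coats type I fibrils in skin and tendon, was at -3.11 in tumour 1 and -4.78 in tumour 2. This difference of -1.67 (3.17-fold) was the largest of any measured collagen towards tumour 1. The second Col14a1 probe, beside a mark, was above background in neither tumour, so the difference rests on 1 spot per array. Col12a1, the closest relative of Col14a1, was at -2.70 in tumour 1 and -2.71 in tumour 2 and did not differ beyond the technical spread. Col22a1, found at tissue junctions such as the one between muscle and tendon, was at -5.03 and -4.02. Its difference of 1.01 (2.01-fold) sat at the 2-fold line, with a technical standard deviation of 0.32 at this level, and its second probe was not well above background.

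Col16a1, a FACIT of skin and smooth muscle, was bright on A_51_P291062, at 4.80 in tumour 1 and 5.23 in tumour 2. The difference of 0.43 was matched in direction by the dim probe A_52_P556933, at -4.56 and -3.95 (0.61). Col19a1 was at -5.10 and -4.41, a difference of 0.70 on 1 of its 3 probes, the other probes being not well above background. Among the chains of type IX, the collagen that decorates type II fibrils in cartilage, only Col9a2 was detected, beside a mark, at -4.35 and -3.88. Col9a1, Col9a3 and Col20a1 were not well above background.

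Fibroblast markers differed between the tumours beside these values. Of their 10 measured probes 7 were lower in tumour 2, the median difference was -0.50, and the summed relative signal was 215 in tumour 1 and 162 in tumour 2. That sum is mostly 1 bright Dcn probe, at 7.51 in tumour 1 and 6.94 in tumour 2, and does not stand for the list. Dcn, a proteoglycan that binds collagen fibrils, differed by -0.57 and -1.67 on its 2 probes. The microfibril gene Mfap5 differed by -1.95 and Pdgfra, a fibroblast receptor, by -0.57 and 0.25. Fbln1, a matrix glycoprotein, went the other way by 1.13, and Thy1 differed by 0.86 and -0.31 on its 2 probes. Pdgfrb had no usable spot away from marks, so no reading is given for it. The part of fibroblast content in the values of types I, III, V and Col14a1 was not tested.

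Type VI collagen probes had no common direction. Col6a1 was at 3.26 in tumour 1 and 3.54 in tumour 2, beside a mark, a difference of 0.28. Col6a2 was higher in tumour 2 on both probes, by 0.50 on A_51_P279639 (0.76 and 1.25) and by 0.15 on A_52_P362757, beside a mark. That 0.15 is near the median of 0.17 of all probes with spots beside marks alone. Col6a3, the chain that extends the filament, was at 5.19 and 4.69 on its bright probe A_52_P479262. That difference of -0.51 lay just outside -0.49 to 0.61, the central 95% of the 1183 probes with a mean level of 4 or more. The dim Col6a3 probe A_52_P573586 was at -4.54 and -4.36, a difference of 0.17 within the technical spread, and the remaining one was above background in tumour 2 alone, too close to the lowest level called for a bound. Over the 3 measured probes the median was 0.17 and the range -0.51 to 0.50, with 2 higher in tumour 2. The median was -0.15 with spots more than 4 rows and columns from a mark and -0.03 with spots beside marks included. Among the differences of single probes given here, only that of the bright Col6a3 probe was below 0. The 2 measured probes of this chain thus lay on both sides of 0.

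Collagens outside these classes had 7 measured probes with a median difference of 0.27, of which 6 were higher in tumour 2, and a range of -0.20 to 1.61. With spots beside marks included this median was 0.015. Col25a1, a transmembrane collagen needed for motor axons to enter developing muscle, was at -4.37 in tumour 1 and -2.77 in tumour 2 on A_51_P333929. The difference of 1.61 (3.05-fold) was the largest of any measured collagen towards tumour 2. A second Col25a1 probe was close to the lowest level called, at -5.97 and -6.02 and above background in tumour 2 alone, and the last was above background in neither, so this value also rests on 1 spot per array. Of the muscle markers, Des and Myh3 were past 2-fold towards tumour 2, while Myog, Mef2c and Myod1 differed by 0.13, 0.05 and -0.35. The part of these markers in the Col25a1 and Col22a1 values was not tested. Col23a1 probes disagreed, with A_51_P457557 at -3.35 and -2.70 (0.65) and the brighter A_52_P441036 at 1.78 and 1.57 (-0.20). The accession of the brighter probe had no RefSeq entry. Col13a1, a transmembrane collagen of the neuromuscular junction, was at -0.75 and -0.64, a difference of 0.11. A second Col13a1 probe was above background in tumour 2 alone, at -5.92, too close to the lowest level called for a bound.

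Col17a1, the transmembrane collagen of hemidesmosomes in basal keratinocytes, was at -2.02 in tumour 1 and -1.57 in tumour 2 on A_51_P358344, differing by 0.45. Its second probe, A_51_P358342, was above background in neither tumour, at -6.03 and -5.98, so the value rests on 1 spot per array. Of the keratinocyte markers, Krt5 was at -5.21 and -1.66 (3.55) and Krt14 at -4.26 and -0.62 (3.64). Away from marks Krt10 was above background in tumour 2 alone, Dsg3 and Trp63 were not well above background in either tumour, and the summed relative signal of the list was 0.079 in tumour 1 and 0.967 in tumour 2. Their part in the Col17a1 value was not tested. The multiplexins are basement membrane proteins whose ends release fragments such as endostatin. Col18a1, the source of endostatin, was at 7.09 and 7.25 on A_51_P191700 and at 5.40 and 5.67 on A_52_P261846. Its differences of 0.15 and 0.27 agreed in direction and were near the technical spread. Col15a1 was at -2.43 in tumour 1 and -3.69 in tumour 2, differing by -1.25 (2.38-fold) on a spot beside a mark, and its other probe was above background in neither tumour. Among all probes with spots beside marks alone, 21.8% reached 2-fold towards tumour 2 and 3.2% towards tumour 1.

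**Figure D4:**
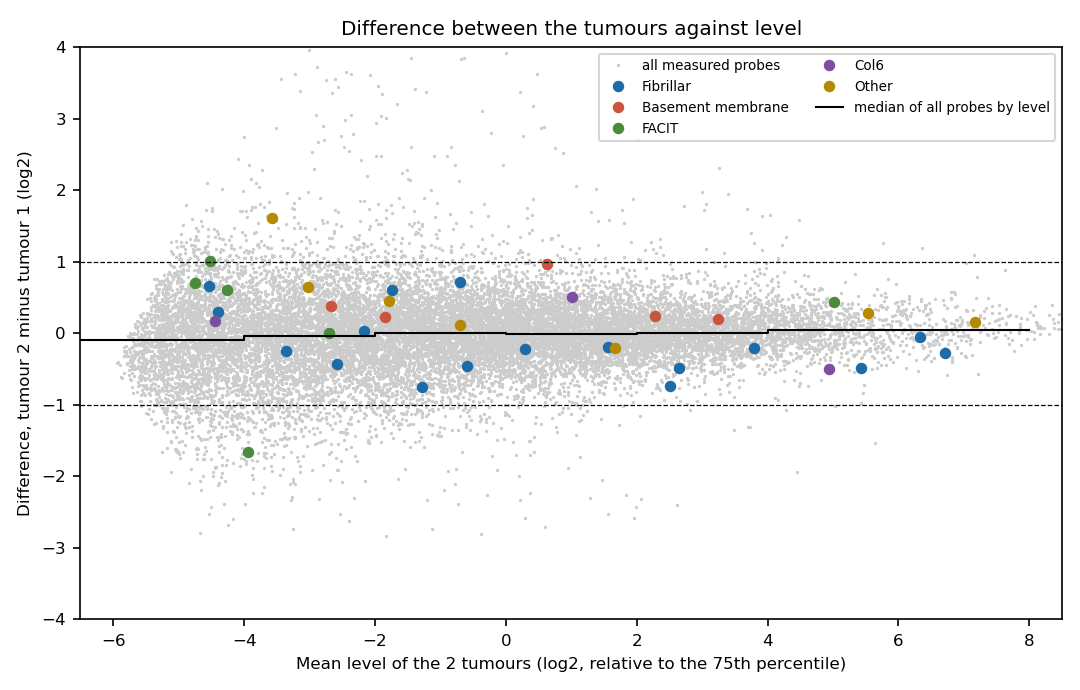
Difference (log2, tumour 2 minus tumour 1) against the mean level of both tumours for all measured probes (grey) and the 38 measured collagen probes (coloured by class), with the median of all probes by level as a black line and 2-fold as dashed lines; 19 probes fall outside the plotted range. The 3 collagen probes at or past 2-fold lie among dim probes, at mean levels from -4.52 to -3.57, while collagens above a level of 4 stay within -0.51 to 0.43.

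Where a collagen gene had several measured probes, they did not always agree. This held for 9 genes, whose probe differences spanned a median of 0.51, against 0.36 for the 3627 such genes on the array. In 1 of the 9, Col27a1, the probes lay at least 2-fold apart, against 10.2% of all such genes. Opposite signs were seen in 4 of the 9 (44.4%), namely Col5a3, Col6a3, Col23a1 and Col27a1, against 42.2% of all. Spans were smallest for Col18a1 (0.12), Col16a1 (0.18) and Col3a1 (0.18). Over all probes, the standard deviation of the difference was 0.63 below a level of -4, 0.70 from -4 to -2 and 0.29 at 4 or more.

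The enzymes and helpers that make collagen were followed with a list of other genes. Of 15 measured probes for folding and modification inside the cell, 12 lay on the side of tumour 2 and the median was 0.19. Serpinh1, the collagen chaperone HSP47, was at 6.06 in tumour 1 and 6.11 in tumour 2. The prolyl 4-hydroxylase subunit P4ha1 stood at 2.90 in both. Plod3, a lysyl hydroxylase, was higher in tumour 2 by 1.26 and 0.61 on its 2 probes, the former being the only probe of the list past 2-fold. Procollagen processing had 10 measured probes with a median of 0.02. Bmp1, which removes the C-propeptide, differed by -0.36 and -0.07, and Adamts2, which removes the N-propeptide, by -0.79, 1.06 and 0.21. Crosslinking enzymes had 6 measured probes with a median of -0.01, 3 in each direction, and no probe past 2-fold. Loxl1, a lysyl oxidase, differed by -0.56, and Lox had no measured spot away from marks. Collagen receptors and uptake had 14 measured probes with a median of -0.34, of which 10 were lower in tumour 2. The integrin chain Itga1 differed by -0.36, -0.33 and -0.67, and its relative Itga2 by -0.71. The uptake receptor Mrc2 was higher in tumour 2 by 0.64 on one probe and by 4.76 on the other, which was at -5.63 in tumour 1 and -0.87 in tumour 2.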

How the data were processed

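Trizol was used for RNA and the Quick Amp kit for labelling 1.0 µg with Cy3, per the labels' protocols. The deposited intensity values came from Agilent Feature Extraction, whose version is 9.1.3.1 per the file headers but 8 in the submitters' processing notes. The other deposited columns are yes or no marks of background, saturation and outliers. The deposited value table equalled the processed signal intensity at all 45018 spots of both arrays, so its scale is linear and uncentred, with medians of 63.3 and 67.5. The genome build used for the array design is not given in the sources used here.

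Levels were log2 processed signals, from which the 75th percentile of the usable spots of that array was subtracted. Usable spots carried no non-uniform or population-outlier mark and lay more than 2 rows and columns from such a mark of array 1 and from the 11 spots of array 2 with a local background above 100. Repeat spots were averaged. A probe was above background when at least 50% of its spots were, and measured when this held on both arrays without saturation. Values of probes beside marks use the same scale. A lower bound sets the bright level against the lowest level called on the other array, -5.78 for array 1 and -6.19 for array 2, or the dim probe's own level if higher. Non-control spots well above background numbered 27014 (62.3%) and 28680 (66.1%) of 43379, and array 2 had 4 saturated spots. With 2 arrays their number limits the precision. Both tumours lie on 1 slide, and the labels number them as separate samples without naming the mice.

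The members and lists were chosen with earlier results of these data known. Values are given in full for collagens with a probe 1.5-fold or more apart, or 2-fold or more beside marks, for genes whose probes differ by 2-fold, and for the first 2 chains of a class. Of the other lists, members past 2-fold and the first 2 are allowed. Of the 78 accessions 57 matched RefSeq, all with the same symbol. Alternatives were other spot sets, subtraction of the local median, normexp (offset 50), quantile and loess (span 0.3) scaling, scaling on the median, the value table as deposited, other filters on detection and each tumour alone. Python 3.11.15, numpy 2.4.6, pandas 2.3.3, statsmodels 0.14.6, R 4.3.3 and limma 3.58.1 were used. The calculation was tested on simulated data.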

Additional observations from a re-analysis of the deposited data

How the results depend on the processing

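No paired analysis was possible because both tumours belong to 1 group. Over 12 alternatives, 416 differences of single collagen probes were recomputed. None that was called changed sign, 6 moved by more than the technical spread, and 10 turned sign, all of them no larger than 0.19 in size. The 6 moves all came with normexp, on dim probes of Col11a2, Col14a1, Col16a1, Col19a1, Col22a1 and Col25a1. There the difference was 0.28 for Col11a2, 0.26 for the dim Col16a1 probe and 0.28 for Col19a1. The fibrillar median stayed below 0, from -0.42 to -0.20, and the basement membrane median above 0, from 0.04 to 0.37. Including spots beside marks lowers every difference by 0.20 through the scale alone, and the median of all probes then is -0.18. It is -0.15 in the unscaled value table and -0.14 without a detection filter.

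The 2 probes at least 2-fold higher in tumour 2 became 1 with spots beside marks included, with spots more than 4 rows and columns away, with the median as scale and in the value table, 0 with spots below the marked area, with normexp and with the brighter 50%, 5 without a detection filter and 4 with the weaker background call. The 1 probe higher in tumour 1 became 2 with spots beside marks included, 0 with normexp and with the brighter 50%, 3 without a filter and 2 with the weaker call. The 3 in all became 1 below the marked area, 0 with normexp and with the brighter 50%, 8 without a filter and 6 with the weaker call. Fewer probes were measured in 3 of these settings, 32 more than 4 rows and columns away (without Col25a1), 22 below the marked area and 20 in the brighter 50%, in place of 38. The FACIT median of 0.52 became 0.27 with spots beside marks, 0.27 with normexp and 0.21 without a filter, the median of the remaining collagens 0.015 with spots beside marks, and the type VI median -0.15 more than 4 rows and columns away and 0.50 below the marked area, where it is a single Col6a2 probe. The cause of the other moves was not tested. Col14a1 ranged from -1.86 to -0.88, Col25a1 from 1.00 to 1.66 and Col22a1 from 0.46 to 1.09. Over all probes 505 reached 2-fold towards tumour 2 and 702 towards tumour 1, but 241 and 203 with normexp and 361 and 1046 in the value table. With 1 tumour left out no difference can be formed, and 39 to 43 collagen probes were above background in the other. The 3 measured probes at least 2-fold apart are dim, so the brighter 50% leaves them out, and signal over background limits them.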
